A study of Mus musculus with 36 samples.

Results

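The cytochrome P450 family was followed across hepatocytes, hepatic stellate cells (HSCs) and liver sinusoidal endothelial cells (LSECs) of C57BL/6 mice. Members were all gene symbols made of Cyp, a family number, subfamily letters and a gene number, which gave 93 of 24421 symbols, in 38 subfamilies and 16 families. A further gene of that symbol pattern was not analysed here. Bulk RNA-seq libraries came from each cell type in a WT condition, which the series describes as mice given PBS, and from mice 12h and 36h after diphtheria toxin (DT), which the labels call Kupffer cell depletion. Each of the 9 groups held 4 libraries, 36 in all, with 25404719 to 31734631 gene counts each. The labels give neither the allele that makes mouse Kupffer cells sensitive to the toxin, nor sex, nor age. There was no toxin group with intact Kupffer cells, so effects of the toxin and of Kupffer cell loss cannot be told apart. Whether a library stands for 1 mouse is not in the labels, and the p-values measure the spread between these libraries only.

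P450 enzymes are heme proteins that insert 1 oxygen atom of molecular oxygen into a substrate, using electrons from NADPH that reach microsomal members through P450 oxidoreductase (Por) and mitochondrial members through adrenodoxin. Families 1 to 3 mainly clear drugs, pollutants and other foreign compounds, family 4 oxidizes fatty acids, and the remaining families make or break down bile acids, sterols, steroid hormones, vitamin D and retinoic acid. The liver is the main site of P450 metabolism, and hepatocytes are its main P450 cell type. Stellate cells store retinoids, and LSECs form the fenestrated wall between blood and hepatocytes.

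The members share the cysteine that holds the heme iron, in a loop near the end of the protein. Coding transcripts were found for 91 members in GENCODE M21, and 85 of these held the heme loop pattern. The loop is shown for 8 members on which the results below turn, as 30 bases of coding sequence with the cysteine codon in capitals.
Cyp1b1: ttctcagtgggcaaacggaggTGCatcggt
Cyp2d22: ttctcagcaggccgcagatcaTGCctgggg
Cyp2e1: ttttctgcaggaaagcgcgtgTGTgttgga
Cyp2j9: ttctcaatgggaaaacgtgctTGTcttgga
Cyp3a11: tttgggaatggacccaggaacTGCcttggc
Cyp4b1: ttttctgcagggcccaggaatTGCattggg
Cyp26b1: tttggcggtggcgtgcggaccTGCctgggc
Cyp27a1: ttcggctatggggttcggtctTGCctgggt
In these 8 sequences 10 of the 30 positions held the same base throughout, and pairs of members had between 11 (Cyp27a1 and Cyp2e1) and 22 (Cyp26b1 and Cyp27a1) equal bases. Other stretches are much closer between some members. Of the 91, 34 share at least 10% of their 50-base windows with the transcripts of another gene, 72.1% for Cyp2c40 and 54.8% for Cyp2c69, and their counts are uncertain because the handling of shared reads is not given in the sources used here. Windows were read from the longest transcript of each member. By that measure Cyp1b1, Cyp2j9, Cyp20a1, Cyp26b1, Cyp27a1 and Cyp39a1 share no window, and Cyp4b1 shares 10.3%. The longest Cyp3a11 transcript shares none either, but 6.13% of the Cyp3a16 windows were found in Cyp3a11 transcripts, so its count is not free of shared reads.

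Each labelled cell type carried its own markers. The summed level of 20 hepatocyte markers was 109300 to 175100 CPM (counts scaled to library size, with the scale set within a cell type) in hepatocyte libraries, that of 10 stellate markers was 41680 to 85950 CPM in HSC libraries, and that of 10 LSEC markers was 23560 to 33260 CPM in LSEC libraries. The 8 Kupffer cell markers summed to 0 to 0.383 CPM in 12h hepatocytes against 1.39 to 18.8 CPM in WT hepatocytes, to 0.327 to 2.59 CPM in 12h HSCs against 3.09 to 16.5 CPM in WT HSCs, and to 2.097 to 5.61 CPM in 12h LSECs against 12.8 to 28.7 CPM in WT LSECs. Several libraries stood apart. Of the 12 hepatocyte libraries, 5 (WT replicates 1 and 2, 12h replicate 1, and 36h replicates 1 and 2) had 242.3 to 478.7 CPM of the nuclear RNA Malat1 and the others 24.8 to 44.9 CPM. HSC 12h replicate 3 had the highest hepatocyte marker sum of the HSC libraries (1774 CPM) and a low stellate sum (44650 CPM), and HSC 36h replicate 4 had the lowest stellate sum (41680 CPM). LSEC 36h replicates 3 and 4 had hepatocyte marker sums of 738.4 and 1196 CPM, against 105 to 475 CPM in the other 10 LSEC libraries.

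Of the 93 members, 11 had no count in any library, among them the aldosterone and corticosterone enzymes Cyp11b1 and Cyp11b2 and the vitamin D enzymes Cyp24a1 and Cyp27b1. At least 1 count was found for 75 members in hepatocytes, 74 in HSCs and 75 in LSECs. The low-count filter left 62, 51 and 47 of them for the tests in hepatocytes, HSCs and LSECs. Members that passed only through the group in which they were high had to differ, so counts of tested members describe those members and not the whole family.

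In WT livers P450 RNA was chiefly hepatocyte RNA. All members together made up 2.967 to 4.039% of the counts of a hepatocyte library, 0.0492 to 0.1002% of an HSC library and 0.2395 to 0.5602% of an LSEC library over the 3 conditions. Of 62 members tested between the WT groups, 55 were higher in hepatocytes than in both other types, where 29.7% of all 13389 genes tested were. Only Cyp20a1 was highest in HSCs, where 17.5% of all genes were, and Cyp1a1, Cyp4b1 and Cyp26b1 were highest in LSECs, where 18.5% of all genes were. Cyp2j9, Cyp2u1 and Cyp4f16 had no single highest type. In the pairwise tests, 55 members were higher and 4 lower in hepatocytes than in HSCs, against 35.9% and 43.2% of all genes. Against LSECs, 56 members were higher and 6 lower in hepatocytes, with 36.3% and 42.7% of all genes. HSCs against LSECs gave 30 members higher and 8 lower, with 29.7% and 27.1% of all genes. Hepatocyte markers summed to 889.5 to 1181 CPM in WT HSCs and 105 to 389.5 CPM in WT LSECs, each on the scale of its own cell type. The part of this hepatocyte RNA in the 30 was not tested. Since the libraries are bulk samples, more RNA per cell and more cells of a type cannot be told apart.

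Per kilobase of transcript, on a scale common to the 12 WT libraries, the foreign-compound enzymes were the most abundant hepatocyte members. Cyp3a11, the main hepatic Cyp3a and a target of the pregnane X receptor, stood at 4016 ± 763 CPM per kb (SD, n = 4). Cyp2e1, the ethanol-oxidizing enzyme of pericentral hepatocytes, was next at 3077 ± 371 CPM per kb. Cyp2f2, which activates naphthalene and is periportal, had 1412 ± 478 CPM per kb. The mean ± SD ranges of Cyp3a11 and Cyp2e1 overlap, and that of Cyp2f2 lies below both. These lengths are of the longest transcript. With the length of all annotated exons Cyp2e1 ranked above Cyp3a11, so the order of the 2 depends on the length used. Cyp2c69, Cyp2c29, Cyp2c70 and Cyp2c50 came next with means of 1155, 1095, 966 and 909 CPM per kb, and their SDs of 190 to 770 CPM per kb do not separate them. Cyp1a2, which oxidizes caffeine, had 759 ± 267 CPM per kb, close to Cyp2d10 at 774 ± 103 CPM per kb. Cyp2b9 led the Cyp2b genes at 482 ± 221 CPM per kb, and Cyp4a10, a fatty acid hydroxylase under PPARα, led family 4 at 414 ± 102 CPM per kb.

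The bile acid enzymes were lower per length than these leading Cyp3a, Cyp2e, Cyp2f and Cyp2c genes. Cyp8b1, which makes cholic acid, had 457 ± 236 CPM per kb in WT hepatocytes, and Cyp27a1, the mitochondrial sterol hydroxylase that opens the acidic route, had 399 ± 57.3 CPM per kb. Cyp7a1, the rate-limiting enzyme of the classic route, had 113 ± 45.5 CPM per kb, and Cyp39a1, which hydroxylates oxysterols, had 31.7 ± 12.8 CPM per kb. Among the steroid and retinoid enzymes, Cyp17a1 had 118 ± 63.8 CPM per kb and Cyp26a1, which degrades retinoic acid, 17.1 ± 18.6 CPM per kb. The last value rests on 1 library, WT replicate 4.

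By subfamily, Cyp3a and Cyp2c together formed more than any other pair of the summed P450 CPM of hepatocytes. Cyp3a made up 27.1% in WT, 31.3% at 12h and 30.2% at 36h, Cyp2c 26.8%, 22.6% and 25.8% at the same times, and Cyp2e 11.7%, 10.1% and 11.6%. In HSCs the largest share was that of Cyp20a, with 42.0%, 44.6% and 35.7% at WT, 12h and 36h. LSECs were dominated by Cyp4b, with 85.6%, 84.0% and 81.6%.

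**Figure D1:**
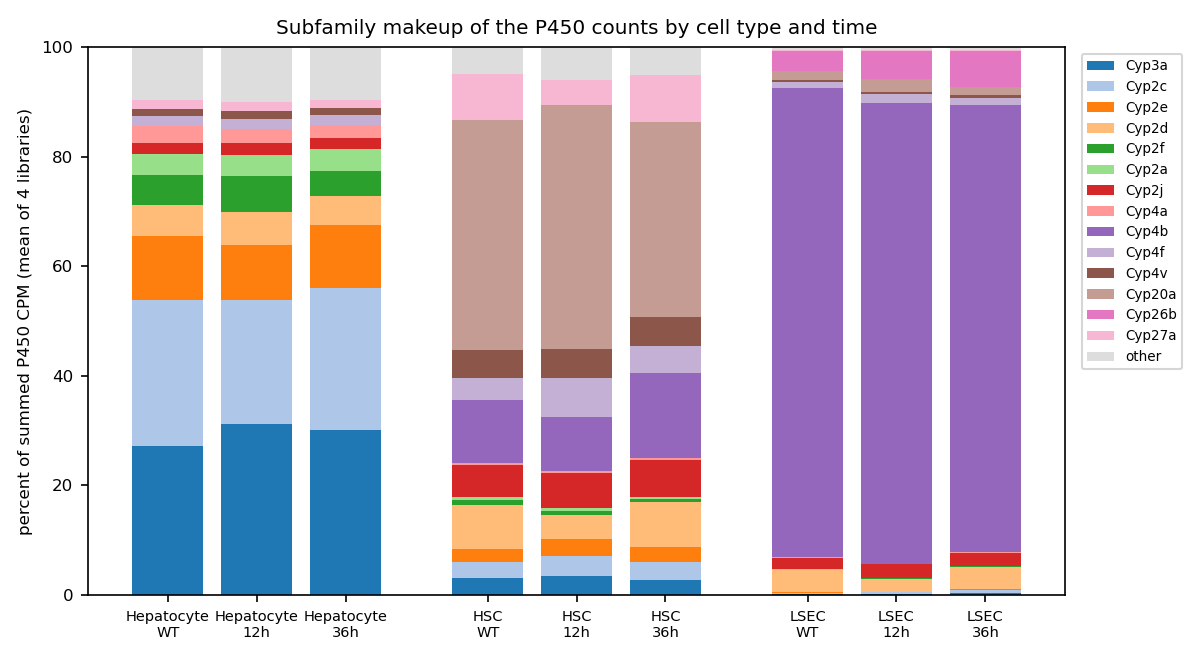
Share of the summed P450 level in CPM (vertical axis, percent) taken by each subfamily in the 9 groups of 4 libraries, as stacked bars of group means. Hepatocyte bars are split mainly between Cyp3a and Cyp2c, HSC bars are led by Cyp20a, and LSEC bars are mostly Cyp4b.

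Many low P450 values in HSC and LSEC libraries lay where hepatocyte markers lay. The 20 hepatocyte markers stood at 0.0491 to 1.14% of their hepatocyte level in WT HSCs and at 0.0267 to 0.167% in WT LSECs. Of the 59 members with at least 1 CPM in WT hepatocytes, 42 fell within that range in HSCs and 37 in LSECs. Cyp3a11, at 0.173% in HSCs and 0.0502% in LSECs, and Cyp2e1, at 0.322% and 0.0762%, are examples. Such values cannot be told from hepatocyte RNA in the preparation. Members of at least 1 CPM that lay above the range numbered 12 in HSCs and 14 in LSECs. Both cell types had Cyp2d22, Cyp2j6, Cyp2j9, Cyp2r1, Cyp4b1, Cyp4f13, Cyp4f16, Cyp4v3, Cyp20a1, Cyp27a1 and Cyp39a1 among them. HSCs added the fatty acid hydroxylase gene Cyp2u1, and LSECs added Cyp1a1, Cyp8b1 and Cyp26b1, with Cyp8b1 only just above the range at 0.179% of its hepatocyte level.

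**Figure D2:**
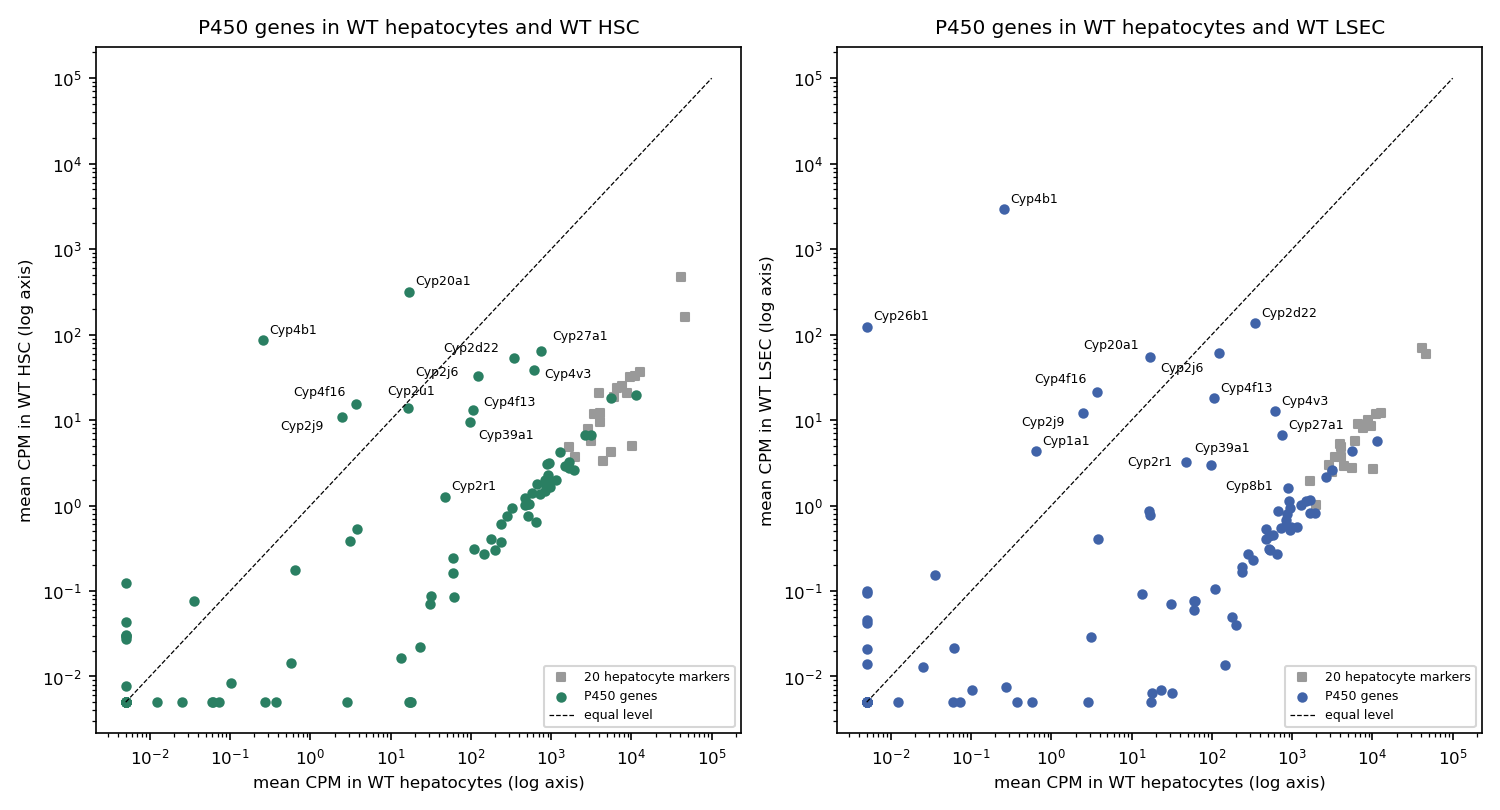
Mean CPM in WT hepatocytes (horizontal log axis) against WT HSCs (left) and WT LSECs (right, vertical log axes), with 1 point per P450 member and values of 0 drawn at the floor of the axes. Grey squares are 20 hepatocyte markers and the dashed line marks equal levels. Most members follow the marker band, and the labelled ones lie above it, with Cyp4b1 the highest in LSECs and Cyp20a1 the highest in HSCs.

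Cyp4b1 (chr4:115624725-115647723, minus strand, GRCm38), which hydroxylates fatty acids and activates some foreign compounds, was the most abundant member of LSECs. It averaged 0.260 ± 0.0854 CPM in WT hepatocytes, 87.0 ± 26.7 CPM in WT HSCs and 2940 ± 288 CPM in WT LSECs (SD, n = 4 each, common scale), and the groups did not overlap. The log2 difference was -13.42 (SE 0.41, adjusted p = 4.11e-12) for hepatocytes against LSECs and -5.08 (SE 0.28, adjusted p = 2.17e-09) for HSCs against LSECs. The 21 Cyp4b1 counts in all WT hepatocyte libraries together put the ratio of LSECs to hepatocytes at 11200, with a 95% counting interval of 7300 to 18000. LSEC markers in WT HSC libraries summed to 86.2 to 153.2 CPM against 29820 to 33260 CPM in WT LSEC libraries, each on the scale of its own cell type. In WT HSC replicate 1, with the lowest LSEC marker sum, Cyp4b1 was also lowest, at 53.9 CPM against 110 to 117 CPM in the other 3. How much of the Cyp4b1 in HSC libraries is LSEC RNA was not tested.

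Cyp26b1 (chr6:84571414-84593908, minus strand), a retinoic acid hydroxylase, had no count in any WT hepatocyte library, 0.125 ± 0.0841 CPM in WT HSCs and 123.6 ± 86.5 CPM in WT LSECs. The LSEC level was at least 3160-fold higher than in hepatocytes, taking a floor of 3 counts over the hepatocyte group (0.0378 CPM), and 992-fold higher than in HSCs (95% counting interval 611 to 1740). The test of HSCs against LSECs gave -9.95 on the log2 scale (SE 0.92, adjusted p = 3.65e-06). Cyp26b1 varied widely between LSEC libraries, with 186.8, 283.2, 23.1 and 128.3 CPM in WT, 12.9, 277.8, 74.6 and 277.8 CPM at 12h, and 138.6, 572.4, 379.7 and 179.9 CPM at 36h on the LSEC scale. The 3 conditions overlapped, and neither 12h (0.05, SE 0.79, adjusted p = 0.975) nor 36h (1.03, SE 0.80, adjusted p = 0.684) passed the test against WT.

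Cyp1a1, the aryl hydrocarbon receptor target that oxidizes polycyclic hydrocarbons, was also highest in LSECs at a low level. It had 0.647 ± 0.606 CPM in WT hepatocytes, 0.175 ± 0.105 CPM in WT HSCs and 4.34 ± 3.56 CPM in WT LSECs. The log2 difference was -2.74 for hepatocytes against LSECs (SE 0.82, adjusted p = 0.0072) and -4.61 for HSCs against LSECs (SE 0.91, adjusted p = 0.000624). The single LSEC libraries ran from 0.103 to 11.3 CPM over the 3 conditions without separating them.

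Cyp20a1 (chr1:60343323-60388060, plus strand), an orphan P450 with no established substrate, was the member called highest in HSCs. It averaged 17.0 ± 4.08 CPM in WT hepatocytes, 318.6 ± 18.4 CPM in WT HSCs and 54.3 ± 6.64 CPM in WT LSECs. The differences were -4.23 for hepatocytes against HSCs (SE 0.18, adjusted p = 5.85e-11) and 2.55 for HSCs against LSECs (SE 0.17, adjusted p = 1.08e-08). It overlaps another gene, 6030460B20Rik, by 1058 bases of the same strand, so its count is uncertain by that much. Per length, Cyp20a1 led the HSC members at 143 ± 8.25 CPM per kb, ahead of Cyp4b1 at 46.0 ± 14.1, Cyp27a1 at 34.2 ± 9.06 and Cyp2d22 at 15.5 ± 5.90 CPM per kb in the same cells. In LSECs the order per length was Cyp4b1 at 1554 ± 152, Cyp2d22 at 40.2, Cyp26b1 at 27.5 ± 19.2 and Cyp20a1 at 24.4 CPM per kb.

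Other members were present in all 3 cell types above the hepatocyte marker range. Cyp2j9, an arachidonic acid hydroxylase, had 2.51 ± 1.48 CPM in WT hepatocytes, 10.8 ± 1.14 CPM in WT HSCs and 12.0 ± 2.01 CPM in WT LSECs. Both non-hepatocyte levels were above the hepatocyte level (adjusted p = 5.33e-05 and 2.68e-05) and their own difference of -0.15 log2 did not pass the test (adjusted p = 0.687). The fatty acid hydroxylase Cyp4f16 followed the same order, with 3.70 ± 1.84, 15.4 ± 3.04 and 21.5 ± 2.07 CPM in WT hepatocytes, HSCs and LSECs. Cyp2d22, of the drug-metabolizing Cyp2d subfamily, stood at 340.8 ± 145.1 CPM in WT hepatocytes, 52.6 ± 20.04 CPM in WT HSCs and 136.6 ± 37.1 CPM in WT LSECs, so that HSCs held 15.4% and LSECs 40.1% of the hepatocyte level. Cyp2j6, an arachidonic acid epoxygenase, likewise held 26.6% and 49.6%. Cyp27a1 leaned to HSCs, which had 8.56% of the hepatocyte level against 0.888% in LSECs (HSCs against LSECs 3.27 log2, SE 0.25, adjusted p = 5.79e-08).

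At 12h the summed P450 level was lower in both non-hepatocyte types. In HSCs it was 866.1 ± 52.2 CPM in WT, 555.8 ± 55.1 CPM at 12h and 900.1 ± 87.6 CPM at 36h, and every 12h library (475.4 to 598.9 CPM) lay below every WT library (800.4 to 927.1 CPM). In LSECs it was 4324 ± 308, 3020 ± 452 and 4680 ± 748 CPM at WT, 12h and 36h, with 12h libraries at 2409 to 3450 CPM and WT libraries at 3961 to 4693 CPM. In hepatocytes the sums were 34080 ± 1356, 30870 ± 2624 and 35990 ± 3493 CPM at WT, 12h and 36h. These sums follow mainly Cyp20a1 in HSCs, Cyp4b1 in LSECs, and Cyp3a and Cyp2c in hepatocytes, and carry no test.

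In HSCs at 12h, 7 of 51 tested members fell, namely Cyp27a1, Cyp39a1, Cyp2d22, Cyp2j9, Cyp2j6, Cyp4v3 and Cyp20a1, where 15.1% of all 12676 genes tested fell. Cyp1b1 was the 1 member that rose, where 17% of all genes rose. The number that fell is near the share for all genes. The median log2 change was -0.43 over the 51 members and 0.01 over all genes. All 7 members that fell belong to the 12 of at least 1 CPM above the hepatocyte marker range in WT HSCs, whose median was -0.58. The 39 others, with a median of -0.41, held only the rise of Cyp1b1. The 12 were picked by their level in the same WT libraries that the test uses. Many of the others had low counts, where a change is hard to call, so no contrast is drawn from this split. By role, 2 of 5 tested bile acid and sterol genes, 3 of 27 family 2 genes, 1 of 9 family 4 genes and the orphan Cyp20a1 fell.

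Cyp2d22, Cyp27a1 and Cyp39a1 had the largest falls in HSCs. Cyp27a1 (chr1:74713574-74737892, plus strand) had 102, 58.4, 65.9 and 67.9 CPM in WT HSCs, 22.9, 25.8, 17.99 and 34.0 CPM at 12h, and 77.9, 100, 80.5 and 50.5 CPM at 36h. The 12h libraries lay below all others, and the log2 change at 12h was -1.55 (SE 0.24, adjusted p = 0.000412). Cyp39a1 (chr17:43667425-43751431, plus strand) had 9.72, 9.79, 12.4 and 11.4 CPM in WT HSCs, 2.46, 5.23, 2.67 and 5.88 CPM at 12h, and 8.95, 10.6, 9.57 and 9.77 CPM at 36h. Again no 12h library reached the WT range, and the change was -1.41 (SE 0.25, adjusted p = 0.000996).

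Cyp2d22 (chr15:82370527-82380260, minus strand) showed the largest fall, -1.82 (SE 0.33, adjusted p = 0.00123). Its values were 92.8, 39.9, 52.5 and 54.6 CPM in WT HSCs, 17.3, 19.5, 10.03 and 21.3 CPM at 12h, and 78.9, 81.4, 67.9 and 30.1 CPM at 36h. Cyp2j9 (chr4:96568429-96591578, minus strand) had 13.3, 10.4, 12.8 and 12.4 CPM in WT HSCs, 7.03, 5.02, 3.98 and 8.06 CPM at 12h, and 15.9, 15.1, 17.8 and 15.9 CPM at 36h. It fell by 1.02 on the log2 scale at 12h (SE 0.19, adjusted p = 0.00146), with 12h libraries below and 36h libraries above the WT range.

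The other 3 falls in HSCs were smaller. Cyp4v3, a fatty acid hydroxylase, had 24.4 to 31.1 CPM at 12h against 36.4 to 49.0 CPM in WT (-0.62, SE 0.13, adjusted p = 0.00253). Cyp2j6 had 25.7 to 30.6 CPM at 12h against 32.3 to 38.9 CPM in WT (-0.41, SE 0.10, adjusted p = 0.00842). Cyp20a1 had 278.4, 281.4, 182.8 and 254.7 CPM at 12h against 332.8, 366.6, 377.5 and 374.8 CPM in WT (-0.54, SE 0.13, adjusted p = 0.00691). In each the 12h libraries lay below every WT library. Cyp4b1, with 59.3, 73.8, 25.95 and 66.4 CPM at 12h and 53.9, 110.1, 117.3 and 115.2 CPM in WT, overlapped and was not called. Cyp4v3 shares 3523 bases of its strand with Gm45753, so its count is uncertain.

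Other marker levels moved at the same time. In HSC libraries the stellate marker sum was 44650 to 63870 CPM at 12h and 63030 to 85950 CPM in WT, the hepatocyte marker sum was 1138 to 1774 CPM at 12h and 889.5 to 1181 CPM in WT, and the sum of 6 monocyte and neutrophil markers was 507.8 to 1077 CPM at 12h and 228 to 317.7 CPM in WT. Of the 6, S100a8, S100a9 and Ccr2 were at 0 in all WT HSC libraries and S100a8 was at 0 in all 12h HSC libraries, so the sum rests on only some of them. The part of these marker levels in the falls was not tested beyond a fit with the hepatocyte marker level as a covariate, under which all 8 HSC calls at 12h held. They also held without HSC 12h replicate 3. The Kupffer cell markers Clec4f and Timd4 were at 0 in all 12h HSC libraries. In replicate order, the 36h HSC libraries had Kupffer cell marker sums of 0.647, 1.76, 1.67 and 14.5 CPM and Cyp27a1 at 77.9, 100, 80.5 and 50.5 CPM. The last of these libraries also had the lowest stellate sum, 41680 CPM. How these levels relate was not tested.

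**Figure D3:**
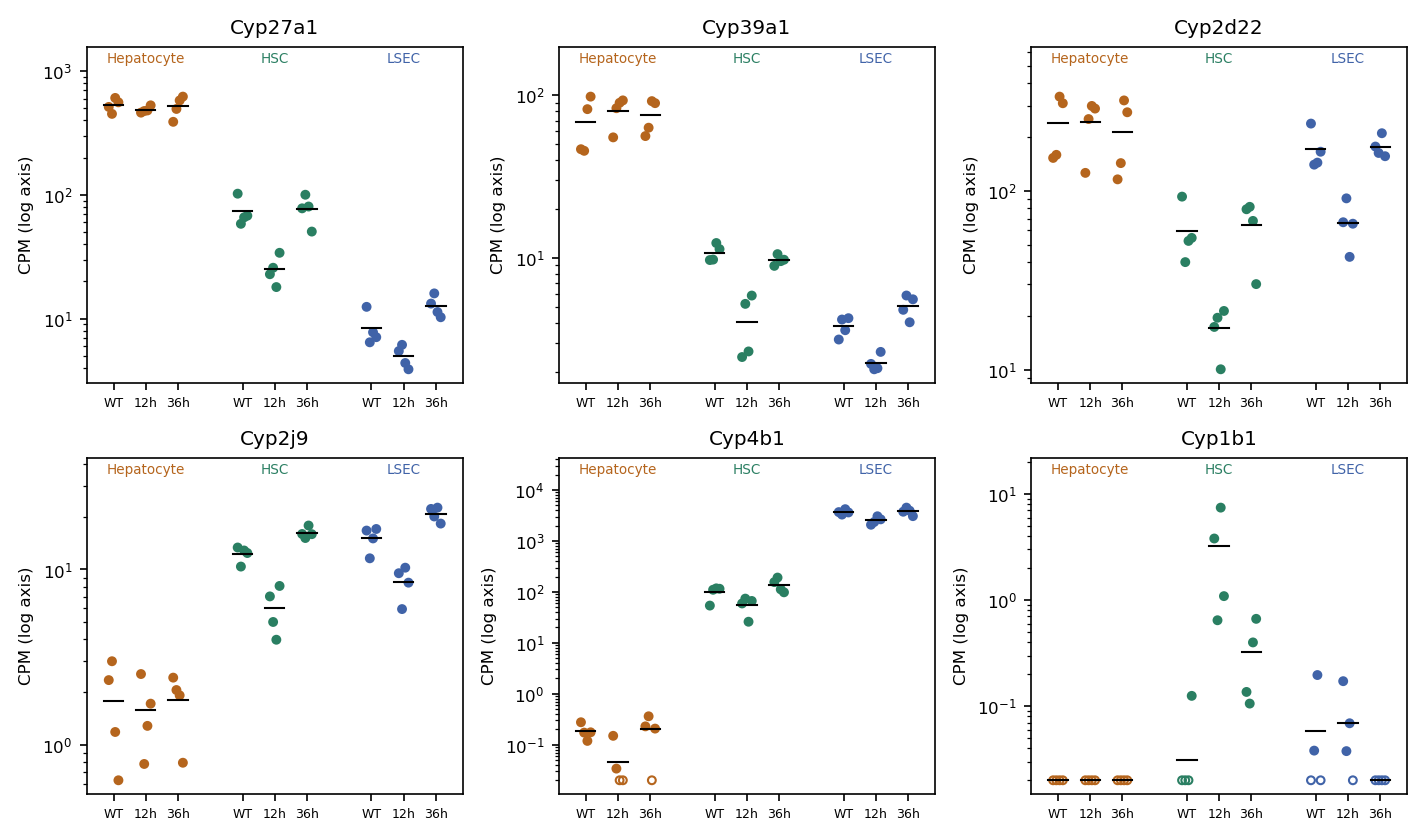
CPM (vertical log axis) of Cyp27a1, Cyp39a1, Cyp2d22, Cyp2j9, Cyp4b1 and Cyp1b1 in each library, by cell type and time, with group means as lines and libraries without a count as open circles at the floor. In HSCs and LSECs the 12h points of Cyp27a1, Cyp39a1, Cyp2d22 and Cyp2j9 lie below the WT points, and Cyp1b1 is high in HSCs at 12h.

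Cyp1b1 (chr17:79701537-79715061, minus strand), which hydroxylates estradiol and polycyclic hydrocarbons and is another aryl hydrocarbon receptor target, was the only member that rose in any comparison with WT. It had 0, 0, 0 and 0.125 CPM in WT HSCs, 3.80, 0.645, 7.44 and 1.09 CPM at 12h, and 0.136, 0.106, 0.399 and 0.665 CPM at 36h. The 12h libraries lay above all WT libraries and differed widely among themselves. The groups held 4 counts in WT, 352 at 12h and 37 at 36h, a ratio of 92.3 for 12h over WT (95% counting interval 35.7 to 341) and of 9.47 for 36h over WT (3.40 to 36.6). The fitted change at 12h was 6.41 (SE 1.09, adjusted p = 0.000847), a size that depends on how counts near 0 are treated, with 5.6 without HSC 12h replicate 3 and 9.51 without HSC WT replicate 4. From 12h to 36h it fell by 3.30 (SE 0.83, adjusted p = 0.00987), which passed the test at -2.48 without HSC 12h replicate 3 (adjusted p = 0.0412) and not with the hepatocyte marker covariate (-2.03, adjusted p = 0.198).

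No hepatocyte library held a Cyp1b1 count, which allows up to 0.0248 to 0.0268 CPM in a group (3 counts over the group, counting error only), and LSEC libraries held 0 to 0.196 CPM. The difference of the 12h response between HSCs and LSECs was 6.18 (SE 1.89) and did not pass the test (adjusted p = 0.122). Ahr, the receptor gene, was at 29.2 ± 5.81 CPM in 12h HSCs and 44.7 ± 7.80 CPM in WT HSCs (-0.61, adjusted p = 0.0104), with overlapping libraries.

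Promoter sequence is shown for Cyp1b1, the member that rose, and Cyp2j9, a member that fell in both HSCs and LSECs, as the 250 bases before the RefSeq start (GRCm38.p6, minus strand, 5′ to 3′). Capitals mark GCGTG, the core of the xenobiotic response element bound by the aryl hydrocarbon receptor, or its reverse complement.
Cyp1b1, chr17:79715062-79715311: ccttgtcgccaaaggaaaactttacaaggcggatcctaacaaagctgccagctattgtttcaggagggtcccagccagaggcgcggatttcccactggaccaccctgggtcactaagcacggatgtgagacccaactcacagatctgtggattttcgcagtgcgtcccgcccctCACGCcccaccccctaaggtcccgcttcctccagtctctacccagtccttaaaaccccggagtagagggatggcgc
Cyp2j9, chr4:96591486-96591735: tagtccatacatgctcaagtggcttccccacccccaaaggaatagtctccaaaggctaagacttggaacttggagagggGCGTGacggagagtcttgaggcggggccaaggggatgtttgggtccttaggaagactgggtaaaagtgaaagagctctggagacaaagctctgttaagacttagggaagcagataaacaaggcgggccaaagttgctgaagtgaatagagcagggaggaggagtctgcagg
The core lies at position -76 on the opposite strand in Cyp1b1 and at -171 on the gene's strand in Cyp2j9. Searched on both strands, GCGTG is in 28.2% of 27025 promoter windows and in 15 of the 73 member windows (20.5%). AGGTCA, a nuclear receptor motif that does not overlap it, is in 13.8% of all windows and in 17 of the 73 (23.3%). These matches describe the letters only.

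In LSECs at 12h, 5 of 47 tested members fell and none rose, where 8.5% of all 12286 genes tested fell and 9.74% rose. The 5 were Cyp2d22, Cyp2j9, Cyp4b1, Cyp39a1 and Cyp27a1, a share of the members near that of all genes. The median was -0.51 over the members and -0.02 over all genes. All 5 were among the 14 members of at least 1 CPM above the hepatocyte marker range in WT LSECs, whose median was -0.40. None of the 33 others, with a median of -0.51, passed the test. The split again rests on the WT libraries of the test, and many of the 33 had WT means near or under 1 CPM. No contrast is drawn from it.

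Cyp2d22 fell most in LSECs, as it did in HSCs. It had 238, 140, 144 and 166 CPM in WT, 66.7, 90.8, 42.7 and 65.5 CPM at 12h, and 177, 163, 210 and 156 CPM at 36h, with all 12h libraries below the others (-1.37, SE 0.22, adjusted p = 0.00112). Cyp2j9 had 16.7, 11.6, 15.03 and 17.0 CPM in WT, 9.52, 5.95, 10.2 and 8.41 CPM at 12h, and 22.1, 20.04, 22.5 and 18.3 CPM at 36h. It fell at 12h by 0.82 on the log2 scale (SE 0.17, adjusted p = 0.00585), and its 36h libraries lay above all WT libraries.

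The endothelial enzyme Cyp4b1 had 3687, 3296, 4208 and 3629 CPM in WT LSECs, 2082, 2360, 3053 and 2658 CPM at 12h, and 3749, 4514, 3923 and 3072 CPM at 36h. The 12h and WT libraries did not overlap, and the change was -0.55 (SE 0.14, adjusted p = 0.0172). Cyp39a1 had 2.07 to 2.65 CPM at 12h against 3.16 to 4.27 CPM in WT (-0.75, SE 0.20, adjusted p = 0.0196), and Cyp27a1 had 3.90 to 6.14 CPM at 12h against 6.44 to 12.5 CPM in WT (-0.76, SE 0.23, adjusted p = 0.0347). These 3 calls rest on few libraries: Cyp4b1 reached an adjusted p of 0.0551 without LSEC WT replicate 3, Cyp39a1 of up to 0.0619 without LSEC WT replicate 2 or 4, and Cyp27a1 of up to 0.112 in the 5 of 15 settings that lost it. The LSEC marker sum was 23560 to 27990 CPM at 12h and 29820 to 33260 CPM in WT, and that of the monocyte and neutrophil markers 11.9 to 42.2 CPM at 12h and 7.33 to 12.05 CPM in WT (median log2 change 1.57, with Plac8 the 1 of 6 called). Their part in the falls was not tested. Cyp20a1 stood at 0.02 (SE 0.12) in LSECs at 12h.

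Falls in HSCs and LSECs overlapped. Among the 44 members tested in both, Cyp27a1, Cyp2d22, Cyp2j9 and Cyp39a1 fell in both, 57.1% of the 7 that fell in HSCs and 80% of the 5 that fell in LSECs. Over the 11595 genes tested in both, 499 fell in both, 31.1% of the HSC and 51.5% of the LSEC falls. HSC and LSEC libraries of the same replicate number at 12h deviated together from their group means (correlations 0.143 to 0.397 across genes), so they are not independent.

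**Figure D4:**
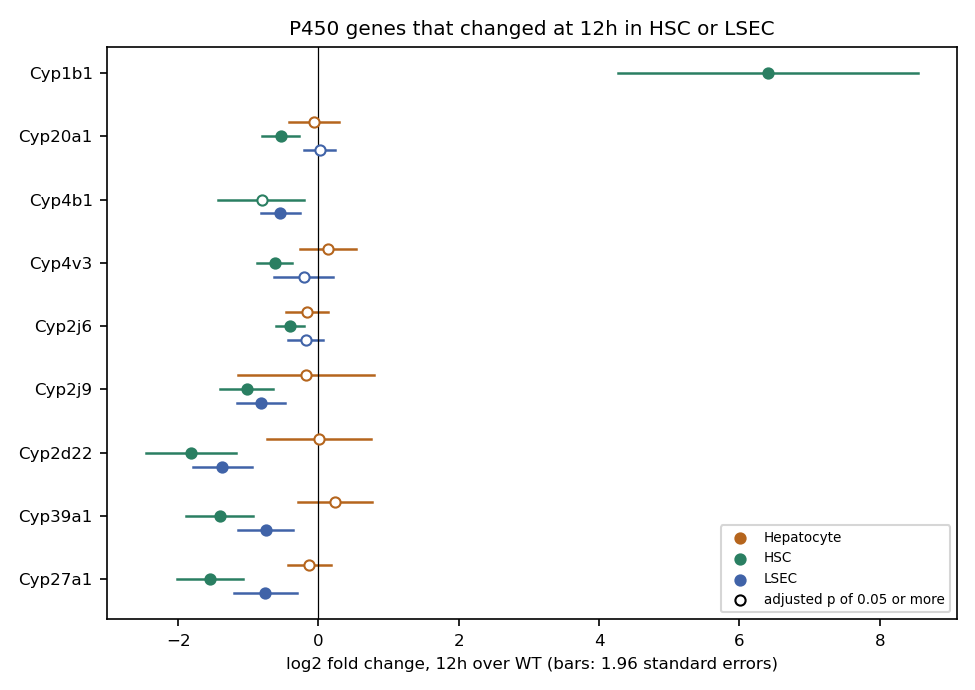
Log2 change of 12h over WT (horizontal axis) for 9 members in hepatocytes, HSCs and LSECs, as points with bars for 95% intervals. Filled points passed an adjusted p under 0.05. Cyp2d22, Cyp39a1 and Cyp27a1 lie left of 0 in HSCs and LSECs and near 0 in hepatocytes, and Cyp1b1 lies right of 0 in HSCs.

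At 36h no member passed the test against WT. None was called in HSCs with edgeR or DESeq2 (4 members at an unadjusted edgeR p under 0.05), where edgeR called 0.142% of all genes. None was called in LSECs with either tool (9 members at an unadjusted edgeR p under 0.05), where edgeR called 0%. Over all genes DESeq2 called 113 higher and 16 lower in HSCs and 87 higher and 22 lower in LSECs. Against 12h, 10 members rose and 1 fell in HSCs at 36h, where 12.9% and 15% of all genes did. The medians were 0.45 for members and -0.01 for all genes. The largest of these rises by test were Cyp2j9 (1.43, adjusted p = 0.000223), Cyp27a1 (1.62, adjusted p = 0.000383), Cyp2d22 (1.92, adjusted p = 0.00104), Cyp2j6 (0.60, adjusted p = 0.00105), Cyp4v3 (0.71, adjusted p = 0.00133) and Cyp39a1 (1.26, adjusted p = 0.00229). Of the 7 genes that fell at 12h, 6 were called higher at 36h than at 12h, and for Cyp20a1 the value was 0.36 (adjusted p = 0.056).

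Cyp4b1 also rose in HSCs between 12h and 36h, to 155.6, 191, 112.1 and 98.2 CPM at 36h against 59.3, 73.8, 25.95 and 66.4 CPM at 12h (1.30, SE 0.32, adjusted p = 0.0082). That call was lost with the hepatocyte marker covariate (0.71, adjusted p = 0.094). The remaining rises were Cyp4f13 (0.68, adjusted p = 0.0135), Cyp2b13 (1.54, adjusted p = 0.0332) and Cyp2u1 (0.42, adjusted p = 0.0373). Of these, Cyp2b13 lay within the hepatocyte marker range in WT HSCs and was lost in 6 of 14 settings (adjusted p up to 0.105), and Cyp2u1 was lost in 9 of 14 (adjusted p up to 0.15). Both comparisons use the 12h libraries, so the falls and the later rises are not independent.

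In LSECs 11 members rose at 36h against 12h and none fell, where 10.6% of all genes rose and 10.8% fell. The median was 1.30 over members and 0.01 over all genes. The 14 members of at least 1 CPM above the hepatocyte marker range gave 6 rises with a median of 0.73, and the 33 others gave 5 rises with a median of 1.44. Among the 14 were Cyp2j9 (1.28, adjusted p = 0.000447), Cyp2d22 (1.41, adjusted p = 0.000797), Cyp27a1 (1.35, adjusted p = 0.0016), Cyp39a1 (1.16, adjusted p = 0.00165), Cyp4b1 (0.59, adjusted p = 0.0104) and Cyp4v3 (0.87, adjusted p = 0.0121). The others were Cyp2u1 (1.48, adjusted p = 0.00332) and the hepatocyte genes Cyp1a2, Cyp2c40, Cyp2c44 and Cyp2f2, with changes of 1.62 to 2.26. Cyp2u1 was also over the marker range in WT LSECs, but under 1 CPM there on the common scale, so it was not among the 14. Cyp2f2 had 1.73, 2.08, 14.7 and 11.8 CPM in the 4 LSEC libraries at 36h, and Cyp1a2 had 0.914, 1.87, 3.79 and 6.36 CPM, so both were highest in the 2 libraries rich in hepatocyte markers. Cyp2c44, with 0.846, 0.588, 1.19 and 1.86 CPM at 36h against 0.138 to 0.565 CPM at 12h, was also highest there, but all its 36h libraries lay above all 12h libraries. Without both libraries the 7 members called were Cyp2j9, Cyp2d22, Cyp27a1, Cyp39a1, Cyp2u1, Cyp4b1 and Cyp4v3. Cyp2c44 was thus not called, and the changes of Cyp1a2, Cyp2c40 and Cyp2f2 were 0.39, 0.83 and 0.26 and not called. Stellate markers moved too, with sums of 431.5 to 876.6 CPM at 36h and 359.3 to 466.4 CPM at 12h, a median log2 change of 1.54 and 7 of 10 at an unadjusted p under 0.05, 2 called higher and 1 lower. Their part in the rises of Cyp2u1, Cyp27a1, Cyp39a1 and Cyp4v3, which were higher in WT HSCs than in WT LSECs, was not tested.

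In hepatocytes no P450 gene passed the test with edgeR at 12h against WT, at 36h against WT or at 36h against 12h. Nor did any other of the 11326 genes tested, so the called share was 0% each time. At an unadjusted p under 0.05 there were 11, 2 and 11 of the 62 members, with smallest adjusted p-values of 0.395, 0.789 and 0.675. DESeq2 called 3 members lower at 12h (Cyp2c37, Cyp3a16 and Cyp4a31), none at 36h against WT, and 1 higher at 36h against 12h (Cyp2a4). Over the same 11326 genes DESeq2 called 16 higher and 29 lower at 12h, 30 higher and 30 lower at 36h against WT, and 18 higher and 7 lower at 36h against 12h. Member medians were -0.14, 0.04 and 0.18 in the 3 comparisons and all-gene medians -0.01, 0.00 and 0.01. By role, the 12h medians were -0.19 for 34 family 2 genes, 0.15 for 6 family 3 genes, -0.18 for 11 family 4 genes and 0.09 for 5 bile acid and sterol genes.

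Of the 62 members, 4 (Cyp2a4, Cyp2c37, Cyp2c38 and Cyp4a31) had all 12h hepatocyte libraries below all WT libraries and 1 (Cyp4f39) above them, where 1.56% and 1.72% of all 11326 genes had. None of the 5 passed the test. Cyp2c37, which oxidizes arachidonic acid, had 774, 965, 775 and 697 CPM in WT, 544, 460, 568 and 519 CPM at 12h, and 743, 728, 579 and 622 CPM at 36h. Its change at 12h was -0.62 (SE 0.14, unadjusted p = 0.000753, adjusted p = 0.395). It shares 30.1% of its windows with other genes, mostly of the same subfamily. Cyp2a4, a steroid hydroxylase, had 468, 467, 444 and 484 CPM in WT, 260, 424, 353 and 350 CPM at 12h, and 586, 542, 497 and 479 CPM at 36h, with -0.43 at 12h (adjusted p = 0.918) and 0.60 for 36h over 12h (SE 0.15, adjusted p = 0.675). Cyp2c38 (-0.66, adjusted p = 0.532) and Cyp4a31 (-0.64, adjusted p = 0.53) were the other 2 of the 4. The Cyp2c subfamily summed to 6477 to 7372 CPM at 12h against 7723 to 10140 CPM in WT, and Cyp2e1 had 2484 to 3630 CPM at 12h against 3508 to 4380 CPM in WT (-0.37, SE 0.16, adjusted p = 0.999).

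For the main hepatocyte enzymes the intervals limit the size of any change. Cyp3a11 had 8940, 9235, 8045 and 5702 CPM in WT hepatocytes, 8095, 7502, 8943 and 8100 CPM at 12h, and 9747, 13940, 6862 and 8184 CPM at 36h, overlapping throughout. Its log2 change at 12h was 0.03 with a 95% interval of -0.39 to 0.45. Cyp7a1 had 258, 315, 379 and 285 CPM at 12h against 268, 231, 310 and 522 CPM in WT (-0.11, interval -0.57 to 0.36). Cyp8b1 was at 0.09 with the wide interval of -0.59 to 0.77, and Cyp27a1 at -0.13 with -0.44 to 0.18. Receptor targets stood at -0.32 for Cyp1a2, -0.09 for Cyp2b10, a target of the constitutive androstane receptor, and -0.21 for Cyp4a14, a PPARα target, none of them called.

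Cyp8b1, Cyp2d22 and other members split the hepatocyte libraries as Malat1 did. Of the 62 members, 6 were higher in all 5 libraries over 100 CPM of Malat1 than in all 7 others and 12 were lower, where 12.8% and 10.6% of all genes were. Cyp3a44 had 148.5 to 319.8 CPM in the 5 libraries against 39.6 to 97.6 CPM in the others, and Cyp2c69 823.6 to 3111 CPM against 341.1 to 743.7 CPM. Lower in the 5 were the periportal Cyp2f2 (968.7 to 1354 CPM against 1917 to 2899 CPM), Cyp2d22 (116 to 159.1 CPM against 252.3 to 336.9 CPM), Cyp8b1 (352.8 to 609.3 CPM against 618.5 to 964.3 CPM), Cyp17a1 (49.6 to 124.4 CPM against 136.4 to 329.1 CPM) and Cyp39a1 (45.6 to 63.3 CPM against 82.3 to 98.3 CPM). The same 5 libraries had 27.1 to 43.0 CPM of Xist against 2.18 to 4.38 CPM in the others. The labels name no batch, and what the 5 libraries share was not tested. With edgeR no member was called at 12h within the libraries under 100 CPM (3 at 12h against 2 in WT) or with the side as a term over all 12 (14 and 17 members at an unadjusted p under 0.05). The libraries over 100 CPM held 1 at 12h and 2 in WT, too few to read a count of 0.

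**Figure D5:**
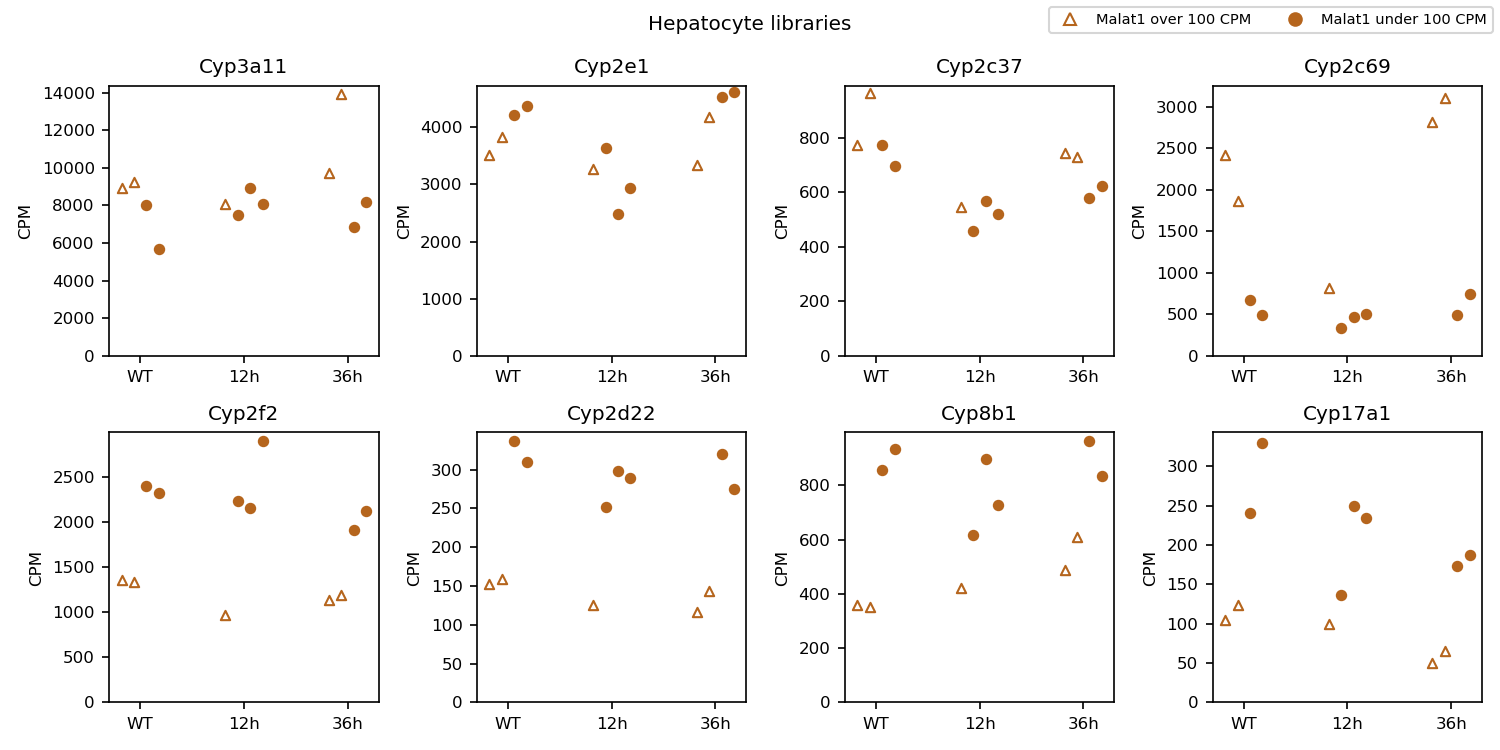
CPM (vertical linear axis) of 8 P450 genes in the 12 hepatocyte libraries by time. Open triangles are the 5 libraries over 100 CPM of Malat1. For Cyp2f2, Cyp2d22, Cyp8b1 and Cyp17a1 the triangles lie below the other points at every time and for Cyp2c69 above them, whereas for Cyp3a11 the 2 kinds overlap.

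The 12h responses were compared directly between cell types in 1 fit over all 36 libraries. Of 66 tested members, 3 changed differently in hepatocytes and HSCs, where 9.2% of all 14104 genes did. They were Cyp39a1 (difference 1.69, SE 0.35, adjusted p = 0.00294), Cyp27a1 (1.47, SE 0.32, adjusted p = 0.0045) and Cyp2d22 (1.87, SE 0.50, adjusted p = 0.0171). In hepatocytes these genes had 12h changes of 0.24 (SE 0.27), -0.13 (SE 0.16) and 0.01 (SE 0.38), with overlapping libraries. Cyp39a1 and Cyp2d22 were lower in all 5 hepatocyte libraries over 100 CPM of Malat1 than in the others. Those libraries were not spread evenly over WT and 12h, and the fit held no Malat1 term. The part of that split in the differences was not tested. The call of Cyp2d22 was lost without HSC 12h replicate 3 or HSC WT replicate 1 (adjusted p up to 0.0531). For Cyp20a1 the difference was 0.53 (adjusted p = 0.12) and for Cyp2j9 0.91 (adjusted p = 0.216).

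Between hepatocytes and LSECs at 12h no member was called with edgeR or DESeq2 (4 at an unadjusted edgeR p under 0.05), where 3.57% of all genes were, with 1.42 for Cyp2d22 (adjusted p = 0.102) and 1.03 for Cyp39a1 (adjusted p = 0.104). Between HSCs and LSECs none was called with either tool (4 at an unadjusted edgeR p under 0.05), where 1.62% of all genes were. Cyp27a1 differed there by -0.79 (adjusted p = 0.305). At 36h edgeR called no member in any of the 3 differences (1, 8 and 11 at an unadjusted p under 0.05 for hepatocytes against HSCs, hepatocytes against LSECs and HSCs against LSECs), where 0.00709%, 0.00709% and 0% of all genes were called. DESeq2 called 1 there, Cyp2b10 for hepatocytes against LSECs, where it called 26 genes higher and 69 lower over all genes.

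Genes that serve P450 enzymes are read against all genes, of which 17% rose and 15.1% fell in HSCs and 9.74% rose and 8.5% fell in LSECs at 12h. Por, the electron donor of microsomal P450s, was at 273.1, 297.5, 765.2 and 406.3 CPM in 12h HSCs against 146.9 ± 17.4 CPM in WT HSCs (1.57, SE 0.28, adjusted p = 0.00122) and at 167 ± 19.7 CPM in 12h LSECs against 112 ± 10.3 CPM in WT LSECs (0.58, adjusted p = 0.00545). Of 9 electron donor genes, 3 rose and 1 fell in HSCs at 12h, with a median of 0.02. In LSECs 3 rose, Por, the electron carrier gene Cyb5a (0.68, adjusted p = 0.00607) and Fdxr (0.60, adjusted p = 0.0227), and 1 fell, with a median of 0.14. The medians of all genes were 0.01 in HSCs and -0.02 in LSECs.

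Of 13 heme synthesis and breakdown genes, 3 rose and 1 fell in HSCs and 2 rose in LSECs at 12h, near the shares of all genes. Hmox1, which breaks heme down, rose by 1.52 in HSCs (adjusted p = 6.95e-05) and by 1.5 in LSECs, to 204 ± 50.9 CPM at 12h against 72.1 ± 14.4 CPM in WT LSECs (adjusted p = 0.000328). Fech, which inserts the iron into heme, fell by 0.54 in HSCs on the log2 scale. Of the P450 regulators, 2 of 13 tested rose and 3 fell in HSCs, among them Nr1h4, the bile acid receptor FXR (181 ± 14.01 CPM at 12h against 316 ± 26.3 CPM in WT, -0.80, adjusted p = 0.000678), and 1 of 15 fell in LSECs. In hepatocytes edgeR called none of the electron donor, heme and regulator genes at 12h (0, 0 and 2 at an unadjusted p under 0.05).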

How the data were processed

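Gene counts per library are the unit of all files, and the authors deposited them as raw counts, 1 file per library. The submitters' processing notes name FastQC 0.11.4, Trimmomatic 0.35, TopHat2 2.1.0, SAMtools 0.1.18 and the mm10 build, and the labels' protocols only point to the study's paper. The sources used here name no counting tool, strand setting or rule for shared reads. Lines that name no gene were left out of library sizes; reads without a feature were 4.895 to 9.023% and ambiguous reads 0.887 to 1.509% of a library. No 2 of the 54 library pairs within a group held identical counts.

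From these counts edgeR 4.0.16 (R 4.3.3) gave TMM-scaled CPM and quasi-likelihood tests over all genes, after filterByExpr (minimum count 10, minimum total 15), with Benjamini-Hochberg adjustment over all genes tested and a threshold of 0.05. Times were compared within a cell type, WT groups in a fit of 12 libraries, and responses by interaction contrasts over 36 libraries. SEs come from the F statistic. Named members were the called ones (up to 10 each way), the top member of each subfamily per kilobase in WT hepatocytes, those of at least 1 CPM above hepatocytes, the 15 highest per length, and 16 textbook genes. Other members were named after their values were seen. Similarity between members was measured by shared 50-base windows of transcripts in place of protein identity. Members and lists were chosen with earlier results of these data known. Counting intervals and floors cover counting error only, whereas the intervals of log2 changes come from the SEs and include the spread between libraries. Only the tests of 12h against WT within each cell type were tried on simulated data.

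Replicate numbers were taken to pair libraries where all 4 correlations of deviations exceeded 0.1. That held for 36h and WT hepatocytes (0.415 to 0.527) and for HSCs and LSECs at 12h (0.143 to 0.397) and 36h (0.143 to 0.228), from the data and not from the labels. In WT and 36h hepatocytes the same replicate numbers were over the Malat1 limit, so pairing and that split cannot be told apart there. Alternatives were DESeq2 1.42.0, another scaling, no filter, a replicate block, a Malat1 term, a hepatocyte marker covariate and leaving out each library. The Malat1 split and leaving out LSEC 36h replicates 3 and 4 together were chosen after seeing the data.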

Additional observations from a re-analysis of the deposited data

Results flagged for a closer look

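Single hepatocyte libraries stood apart for 2 genes. Cyp26a1 was at 56.4 CPM in WT replicate 4 against 8.31 to 12.2 CPM in the other WT libraries, and Cyp4a10 at 537 CPM in 12h replicate 4 against 371 to 385 CPM. In HSC 36h replicate 3, Cyp1a2 (9.13 CPM against 3.51 to 3.75 CPM), Cyp2f2 (10.8 CPM against 2.52 to 3.73 CPM), Cyp7a1 (3.41 CPM against 0.443 to 0.916 CPM) and Cyp4v3 (56.2 CPM against 43.6 to 43.7 CPM) were high, and this library had a hepatocyte marker sum of 1263 CPM against 864.3 to 912.6 CPM in the other 36h HSC libraries. Cyp4a10 was low in HSC 36h replicate 1, at 1.09 CPM against 1.70 to 1.80 CPM.

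HSC WT replicate 1 had 35.3 CPM of Cyp2e1 against 14.96 to 17.01 CPM and 53.9 CPM of Cyp4b1 against 110 to 117 CPM in the other WT HSC libraries. At 12h, HSC replicate 4 had 14.1 CPM of Cyp2e1 against 17.99 to 18.5 CPM and HSC replicate 3 had 4.32 CPM of Cyp8b1 against 1.63 to 2.07 CPM. In LSECs, Cyp2e1 was at 25.6 CPM in 36h replicate 4 against 5.86 to 7.04 CPM and at 2.25 CPM in WT replicate 2 against 6.24 to 6.72 CPM, the LSEC libraries with the most (1196 CPM) and the least (105 CPM) hepatocyte marker RNA. Each of these 13 groups of 4 had 1 library whose gap to the nearest other as a share of the group's range exceeded Dixon's critical value at 95%. Of 141 groups checked, chance flags about 1 in 20.

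The 12h changes in hepatocytes and HSCs differed, by the interaction test, for Cyp39a1 (1.69), Cyp27a1 (1.47) and Cyp2d22 (1.87), with hepatocyte values near 0 and HSC values below 0. That fit held no term for the Malat1 split of the hepatocyte libraries.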

How the results depend on the processing

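No named call reversed direction under any alternative run, and all 8 HSC calls at 12h held in all 14 settings. The direction of named values that were not called was not compared between runs. In hepatocytes DESeq2 called 3 members at 12h and 1 at 36h against 12h, where edgeR called 0. Over all genes DESeq2 called 16 higher and 29 lower at 12h, and 18 higher and 7 lower at 36h against 12h. In LSECs the 5 calls at 12h became 8 with the hepatocyte marker covariate, and the 11 at 36h against 12h became 7 without 36h replicates 3 and 4 together. For the 12h response, hepatocytes against HSCs gave 5 calls with DESeq2 against 3, and hepatocytes against LSECs gave 1 (Cyp39a1) with a replicate block against 0. The 36h response of hepatocytes against LSECs gave 1 (Cyp2b10) with DESeq2 against 0. The cause was not tested. Leaving out 1 library gave 8 to 10 calls in HSCs at 12h, 9 to 11 in HSCs at 36h against 12h, 3 to 6 in LSECs at 12h (3 without LSEC WT replicate 3), 7 to 15 in LSECs at 36h against 12h (7 without 12h replicate 1, 12h replicate 4 or 36h replicate 3), 59 to 60, 62 to 63 and 31 to 43 in WT hepatocytes against HSCs, hepatocytes against LSECs and HSCs against LSECs, 2 to 4 in the 12h response of hepatocytes against HSCs, and 0 to 2 in that against LSECs (2 without hepatocyte WT replicate 4). The replicate block gave 9 calls in HSCs and 5 in LSECs at 12h, and 13 and 9 at 36h against 12h, and pairs libraries across times only where stated above. Of 109 named calls, 14 were lost in at least 1 setting, and of 218 named values not called, 17 were called in at least 1. Depth limits statements on members under about 1 CPM, such as Cyp1b1 outside HSCs.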
